A study of Saccharomyces cerevisiae with 24 samples.

Results

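The genes described here encode the proteasome of budding yeast, Saccharomyces cerevisiae: the subunits of its 20S core particle and of its 19S cap, the core maturation factor UMP1, the alternative core activator BLM10 and the transcription factor RPN4. They were chosen by name, 34 genes in all, and PRE3, a core gene with an intron, was left out by that rule. PUP3, a core subunit, had no probe under its name, so 33 of the 34 genes were measured, by 34 of the 6350 probes on the array, since BLM10 had 2. All 34 of these probes passed the filter on missing values, among 5487 that did. The core counted 12 measured genes of 13 (7 of the outer alpha rings and 5 of the inner beta rings) and the cap 18 of 18 (10 of the base and 8 of the lid).

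The proteasome is the protease that breaks down proteins tagged with ubiquitin. Its core is a barrel of stacked rings with the protease sites inside, and its cap recognises the tag, removes it, unfolds the protein with a ring of ATPases and feeds it into the barrel. Rpn4 activates the proteasome genes and is itself a short-lived substrate of the proteasome, and heat, which damages proteins, raises the need for this machine.

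Total RNA was taken from 4 strains, labelled prp17 null, prp17-1, prp22-1 and SS330, at 23C (0 min) and 5, 15, 30, 60 and 120 min after a shift to 37C. Prp17, encoded by CDC40, and Prp22 are splicing factors of the second step of intron removal, and the labels name a splicing-factor allele for the first 3 strains and none for SS330. Each of the 24 arrays compared RNA of 1 strain at 1 time (Cy5) with yeast genomic DNA (Cy3). There was 1 array per strain and time, so strain and culture cannot be told apart, and the labels used here do not give the strains' further genotype. Values are log2 ratios of RNA over DNA after each array's median was set to 0. They give differences between arrays for 1 probe, relative to the typical gene of that array, and no level can be compared between probes. In RNA of a whole culture, fewer cells of a type and less RNA per cell cannot be told apart.

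The arrays held a value for 77.3% to 98.4% of probes, the lowest share being that of prp22-1 at 15 min. Correlations between arrays ran from 0.31 to 0.93, and the SD over probes at 37C was 0.82 to 1.05 in prp17 null, 0.60 to 0.85 in prp17-1, 0.60 to 0.91 in prp22-1 and 0.42 to 0.78 in SS330. CDC40 lay between -2.76 and -0.63 in prp17 null, against -0.54 to 0.41 in SS330, as its label says. SSA4, a heat shock chaperone gene, stood at 3.10 at 5 min and 0.23 at 0 min in SS330.

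In SS330 the proteasome genes were high for 15 min after the shift and were back near their starting values by 60 min, while in prp17-1 they were highest at the end of the course. The median over the 34 probes in prp17 null was 0.52, 0.59, 0.52, 0.74, 0.71 and 0.75 at 0, 5, 15, 30, 60 and 120 min. In prp17-1 it was 0.48, 0.44, 0.57, 0.71, 0.87 and 1.07 at the same times. In prp22-1 it was 0.19, 0.63, 0.45, 0.30, 0.11 and 0.59, and in SS330 it was 0.19, 0.75, 0.86, 0.30, -0.01 and 0.09. The median of all tested probes stayed between -0.01 and 0.02 on each array. The strains with a prp17 allele thus had the higher starting median, and SS330 and prp22-1 the larger early step.

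**Figure D1:**
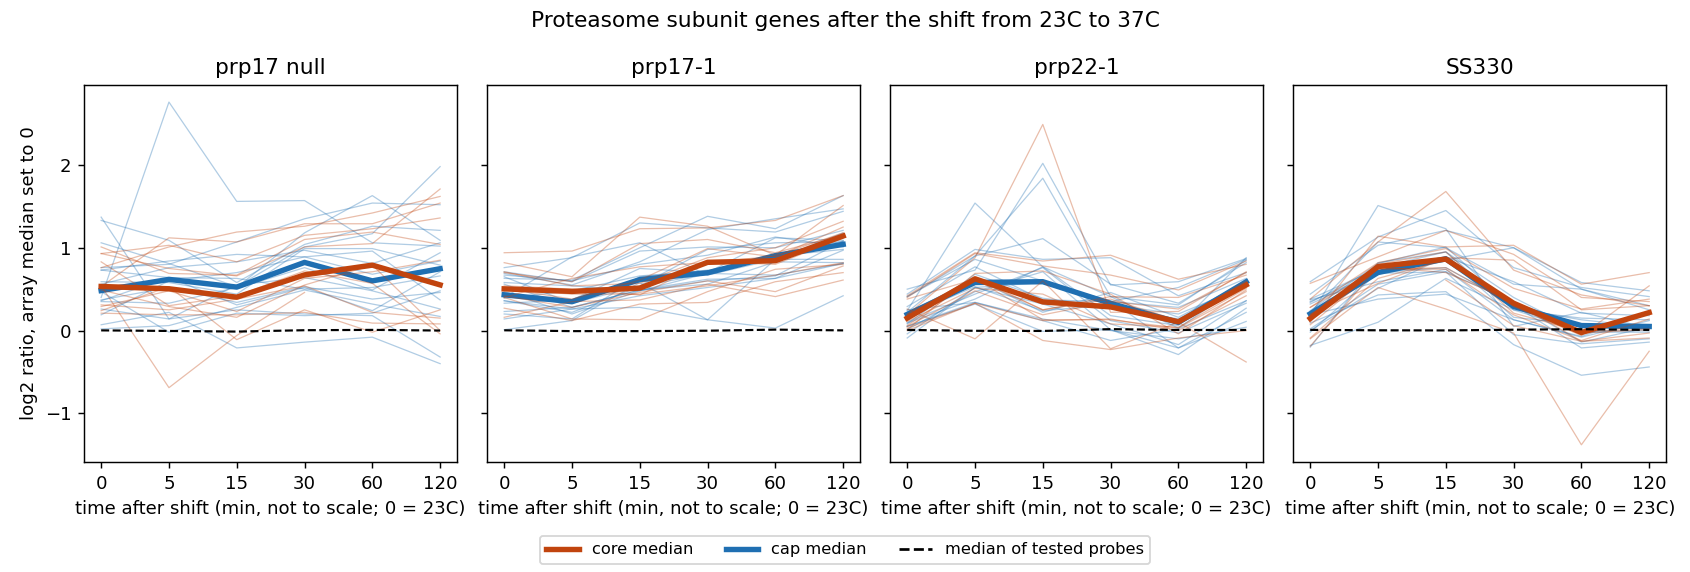
Log2 ratio of each core gene (thin orange lines) and each cap gene (thin blue lines) against time after the shift, in 1 panel per strain; thick lines are medians over genes, dashed lines the median of tested probes, and the times are spaced evenly. Core and cap medians are both highest at 15 min in SS330 (0.86 and 0.87) and at 120 min in prp17-1 (1.14 and 1.04). In prp17 null they move in opposite directions from 30 to 60 min and from 60 to 120 min.

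The timing was shared by most genes. Of the probes with a value at all 6 times, 4 of 33 were highest at 5 or 15 min in prp17 null, 2 of 32 in prp17-1, 27 of 34 in prp22-1 and 31 of 32 in SS330. Over all complete probes of the array those shares were 20.9%, 27.9%, 33.8% and 35.7% in the same order of strains. At 60 or 120 min, 18 of 33 were highest in prp17 null and 30 of 32 in prp17-1, where 27 had their highest value at 120 min. The matching shares over all complete probes were 34.3% and 35.4%. In prp22-1, 7 of 34 were highest at 60 or 120 min, each of them at 120 min, against 26.9% of all complete probes. The prp22-1 median was low at 60 min and higher again at 120 min. RPN2, which encodes a scaffold of the cap base, was the 1 SS330 exception, with its highest value at 30 min (1.00).

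Averaged over the 4 strains, few proteasome genes passed the test for the shift to 37C. RPN11 and PRE6 were higher at 37C than at 23C, by 0.66 ± 0.19 and 0.44 ± 0.15 (log2, SE; limma adjusted p = 0.011 and 0.034), so 2 of 34 were called where 30.7% of tested probes were called in either direction. The difference was positive for 31 of 34, with a median of 0.19 against 0.00 over all tested probes. Under quantile normalization, which gives every array the same distribution of values, the median was -0.09, and RPN11 (0.31) and PRE6 (0.20) were not called. PRE6 encodes an alpha-ring subunit and RPN11 the deubiquitinase of the lid. Within the core, PRE7 of the beta ring had the largest difference (0.44) and PRE1 the smallest (-0.17), and within the cap the smallest was RPN13 (-0.07), a ubiquitin receptor. The count was 0 without prp17 null at 23C and 1 without prp17-1 or prp22-1 at 23C. It was 4 to 6 without prp17 null at 5 or 15 min, prp17-1 at 5 or 15 min, or SS330 at 60 or 120 min.

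Taken time by time, the calls were 2 at 5 min (RPN4 and RPN11), 3 at 15 min (RPN11, PRE7 and RPN7), 0 at 30 and 60 min, and 2 at 120 min (UMP1 and PRE6). The shares of tested probes called were 24.6%, 30.0%, 17.7%, 6.38% and 18.1% at 5, 15, 30, 60 and 120 min. At 30 and 60 min, 1 and 0 of the 34 had an unadjusted limma p under 0.05, against 32.7% and 23.5% of tested probes. The difference from 0 min was positive for 34 of 34 probes at 15 min and for 25 of 34 at 60 min. The spread in this comparison is that between strains, which did not run the same course. Under quantile normalization RPN11 alone was called, at 5 min; UMP1 was 0.15 at 120 min and PRE7 -0.14 at 15 min. The 5 min count was 4 without prp17-1 at 5 min. The 15 min count was 9 without prp17 null at 15 min, 1 without prp17 null at 23C, 0 without SS330 at 15 min, and 5 without prp17 null at 60 min or SS330 at 5 or 120 min. The 120 min count was 6 without SS330 at 120 min and 0 without any 1 mutant array at 23C or 120 min. It was 1 without prp17 null at 5 or 30 min, prp17-1 at 5, 15, 30 or 60 min, prp22-1 at 5, 30 or 60 min, or SS330 at 30 min.

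RPN4 and RPN11 had the largest differences at 5 min from 0 min in the fit over the 4 strains. The largest of the core was 0.47 (PRE6). RPN4, the activator, read 0.95, 2.59, 2.14, 2.12, 1.45 and 1.82 in prp17 null from 0 to 120 min. In prp17-1 it read 0.59, 2.38, 2.03 and 0.88 from 0 to 30 min, with no value at 60 and 120 min. In prp22-1 it read 0.78, 1.5, 0.21, 0.15, 0.53 and 1.43, and in SS330 0.33, 1.99, 0.89 and -0.32 from 0 to 30 min, no value at 60 min and -0.10 at 120 min. All 4 strains were thus higher at 5 min than at 0 min, by 1.45 ± 0.33 in the fit (limma adjusted p = 0.0037). Under quantile normalization the difference was 0.52 and was not called (0.21). From 15 min on, prp17 null stayed above 1.4 at each time, whereas SS330 was below its own 0 min value at 30 and 120 min.

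RPN11 read 0.40, 2.76, 1.56, 1.57, 1.06 and 1.02 in prp17 null from 0 to 120 min. It read 0.40, 0.89, 1.06, 0.67, 0.86 and 0.86 in prp17-1 and 0.24, 1.54, 0.77, 0.41, 0.31 and 0.85 in prp22-1. In SS330 it read 0.18, 1.51, 1.23, 0.05, 0.22 and 0.03. It was highest at 5 min in 3 strains and at 15 min in prp17-1, and its difference at 5 min was 1.37 ± 0.24 (limma adjusted p = 0.00034) and 0.87 under quantile normalization (0.0024). In prp17-1 RPN11 went from 0.40 at 0 min to 0.89 at 5 min, a smaller step than in the other strains. The only other member called at 5 min was RPN4.

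Before the shift, prp17 null and prp17-1 already had higher proteasome readings than SS330, on 1 array each. At 0 min, 28 of 34 probes were higher in prp17 null than in SS330 and 30 of 34 in prp17-1, with median differences of 0.31 and 0.26. In prp22-1 the count was 18 of 34 and the median difference 0.03. Of the tested probes, 49.6% (prp17 null), 49.2% (prp17-1) and 50.6% (prp22-1) were above their SS330 value at 0 min. These single arrays have no replicate check. RPN3, a lid subunit, read 1.37 in prp17 null at 0 min, against -0.20 in SS330 at 0 min, and it read 0.14 to 0.64 in prp17 null at 37C.

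The difference from SS330 changed sign during the course. At 5 and 15 min the mutants were mostly below SS330: 9 of 33 and 4 of 34 probes were higher in prp17 null, 3 of 33 and 5 of 34 in prp17-1, and 10 of 33 and 9 of 34 in prp22-1. At 30, 60 and 120 min, 29 of 34, 30 of 32 and 29 of 34 were higher in prp17 null, with median differences of 0.31, 0.52 and 0.50. In prp17-1 it was 31 of 34, 32 of 32 and 33 of 33, with medians of 0.38, 0.72 and 0.86. In prp22-1 it was 16 of 34, 21 of 33 and 30 of 34, with medians of -0.06, 0.07 and 0.36. Over tested probes at these 3 times the share higher than SS330 stayed between 43.1% and 49.5%. The matching shares at 5 and 15 min are not given here, so the early counts stand without that background.

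**Figure D2:**
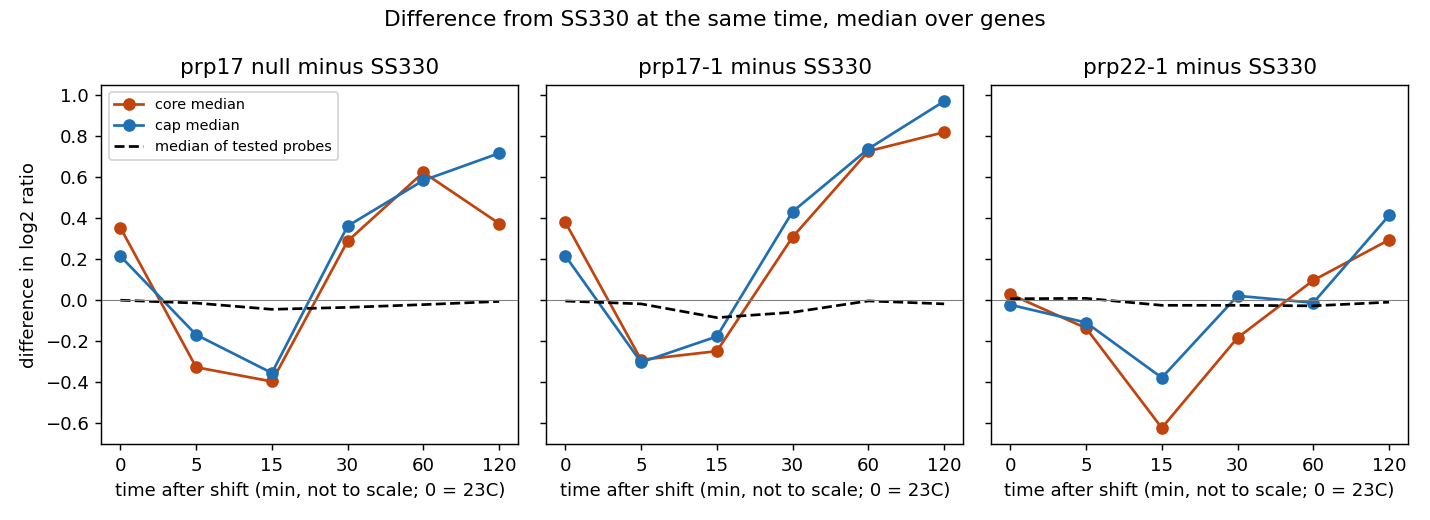
Median over genes of the log2 difference from SS330 at the same time, for core (orange) and cap (blue), with the median of tested probes dashed; 1 panel per mutant and times spaced evenly. In both prp17 strains the core and cap medians are above 0 at 0 min, below it at 5 and 15 min and above it from 30 min; in prp22-1 they reach 0.29 (core) and 0.41 (cap) at 120 min.

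Averaged over all 5 times at 37C, the early and late differences partly cancelled. In prp17 null, 7 genes were higher than in SS330 (RPN4, RPN11, PRE6, RPN1, RPT2, PRE10 and RPN7, by 0.46 to 1.51) and 1 was lower (RPN13, -0.32 ± 0.11, limma adjusted p = 0.039). The shares of tested probes called were 14.6% higher and 19.4% lower. The count of 8 was 5 without prp17 null at 120 min, 5 without SS330 at 60 min and 4 without SS330 at 120 min. The RPN13 call was lost in 13 of 33 alternatives, among them no centring, no time term, quantile normalization, and leaving out prp17 null at 15, 30 or 120 min or SS330 at 5, 15, 30 or 120 min. The RPN7 call was lost in 18 of 32 alternatives. Under quantile normalization RPT2, RPN4, RPN11 and PRE6 were called, and the median over the 34 probes was -0.0026, against 0.14 with centring alone. In prp17-1 none of the 34 was called, where 3.17% of tested probes were, although all 34 differences were positive (median 0.31). Of the 34, 10 had an unadjusted limma p under 0.05, against 18.2% of tested probes. The prp17-1 count of called probes was 1 without prp17-1 at 5 min or SS330 at 5 or 15 min. In prp22-1 none was called either, where 3.48% of tested probes were, and the median was -0.02. There none of the 34 had an unadjusted p under 0.05, against 18.0% of tested probes.

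Averages at these 5 times had their core and cap extremes as follows. In prp17 null the largest and smallest core differences were those of PRE6 (0.87) and PRE9 (-0.21) and the smallest of the cap was RPT6 (-0.42, not called). In prp17-1 the core ran from PRE8 (0.01) to PRE1 (0.64) and the cap from RPN13 (0.03) to RPT2 (0.65). In prp22-1 the core ran from PUP1 (-0.18) to PRE1 (0.18) and the cap from RPN8 (-0.25) to RPN9 (0.42). No call was made in prp17-1 or prp22-1, so these 2 ranges are descriptions. The change from 23C to 37C in a mutant minus that in SS330 called none of the 34 in prp17 null, prp17-1 or prp22-1, where 0% of tested probes were called (limma). Its median over the 34 was -0.15, 0.01 and -0.04 in that order, against -0.06, -0.05 and -0.01 over tested probes. It was positive for 13, 18 and 15 of the 34. Against their own 23C arrays, most members thus did not rise further in prp17 null or prp22-1 than in SS330. In that comparison 1, 0 and 0 of the 34 had an unadjusted p under 0.05, against 7.62%, 1.43% and 2.44% of tested probes. Each strain has a single array at 23C.

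Over the late times of 30, 60 and 120 min, 16 of the 34 probes were higher in prp17 null than in SS330 and 20 of 34 in prp17-1, and none was lower in either strain. This comparison was added after the time courses had been seen, and both strains are set against the same SS330 arrays. In prp17 null the median difference was 0.42 against -0.03 over all tested probes, of which 18.3% were called higher and 22.5% lower. Its count is therefore read against a high background, and 3 of its 34 estimates were below 0 (RPT6, RPN13 and PRE9). In prp17-1 the median was 0.67 against -0.03, where 2.68% of tested probes were called higher and 4.52% lower, and all 34 estimates were above 0. In prp22-1 none was called, where 6.14% of tested probes were, and the median was 0.11. There 4 of the 34 had an unadjusted limma p under 0.05, against 21.0% of tested probes. The prp22-1 count was 1 without prp22-1 at 30 min, prp17 null at 120 min or SS330 at 30 min. The prp17-1 count was 12 without SS330 at 60 min, 6 without SS330 at 120 min, 9 without prp17-1 at 60 min and 10 without prp17-1 at 120 min. The prp17-1 median without any 1 array was 0.59 to 0.80. The calls of PRE6, PRE10, RPT2, RPT4, RPT5 and UMP1 in prp17-1 held without any 1 array. In prp17 null those of SCL1, RPN2, RPN9, RPT5 and UMP1 did not. Under quantile normalization the prp17 null calls were 8 (PRE6, PRE10, RPT2, RPT4, RPN1, RPN7, RPN11 and RPN4), with a median of 0.16, while each of the 20 prp17-1 calls held. The tests rest on the spread between times of 1 course per strain. The late differences are differences in level, so they include any already present at 0 min.

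Among the alpha-ring genes, PRE6 and PRE10 had the largest late differences. PRE6 read 1.29, 1.29 and 1.54 in prp17 null at 30, 60 and 120 min, 0.82, 0.90 and 1.18 in prp17-1, 0.35, 0.26 and 0.70 in prp22-1, and 0.21, -0.01 and 0.02 in SS330. Every value of the 3 mutants was above every SS330 value. The fitted differences were 1.30 ± 0.14 in prp17 null (limma adjusted p = 2.2e-05), 0.89 ± 0.14 in prp17-1 (0.0023) and 0.37 ± 0.14 in prp22-1 (0.14). PRE10 was higher late than in SS330 by 1.21 ± 0.17 in prp17 null and 1.00 ± 0.17 in prp17-1 (0.00014 and 0.0038). It already read 0.93 in prp17 null and 0.51 in prp17-1 at 0 min, against -0.19 in SS330. SCL1 was called in prp17 null alone (0.69 ± 0.17; 0.12 and not called under quantile normalization, and not called without SS330 at 120 min) and PRE5 in prp17-1 alone (0.68 ± 0.14; not called without prp17-1 or SS330 at 120 min), which is no test that the strains differ. PRE8, PRE9 and PUP2 were called in neither strain. PRE9 encodes the 1 core subunit that yeast can live without, and its late difference was -0.02 ± 0.22 in prp17 null and 0.45 ± 0.22 in prp17-1.

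The beta-ring genes, among them the subunits with protease sites, gave 1 call of 5 in prp17 null and 4 of 5 in prp17-1. The prp17 null count is near the 18.3% of all tested probes called higher there, while in prp17-1 that share was 2.68%. PRE7 read 1.26, 1.42 and 1.62 in prp17 null at 30, 60 and 120 min, 1.24, 1.33 and 1.63 in prp17-1, 0.91, 0.62 and 0.80 in prp22-1, and 0.73, 0.43 and 0.30 in SS330. The values of both prp17 strains did not overlap those of SS330, and those of prp22-1 did. PRE7 differed by 0.95 ± 0.17 in prp17 null and 0.91 ± 0.17 in prp17-1 (limma adjusted p = 0.00062 and 0.0048). Under quantile normalization the prp17 null value of PRE7 was 0.33 and was not called, and its prp17-1 call was lost without SS330 at 120 min. PRE2 and PUP1, which encode catalytic subunits, were higher in prp17-1 by 0.58 ± 0.16 and 0.65 ± 0.16 (0.034 and 0.024). In prp17 null their differences were 0.04 ± 0.16 and 0.19 ± 0.16 and were not called. PRE1 was higher in prp17-1 by 1.08 ± 0.28 (0.030), and SS330 at 60 min, at -1.38, was its lowest reading of all 24 arrays. Without that array the PRE1 difference was 0.63 and was not called, and the call was also lost without prp17-1 at 30, 60 or 120 min or SS330 at 120 min. Those of PUP1 and PRE2 were lost without prp17-1 or SS330 at 60 or 120 min, and that of PUP1 also without prp17-1 at 30 min. PRE4 was called in neither strain.

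In the cap base, 5 of the 6 ATPase genes were higher late in prp17-1 and 4 in prp17 null. The backgrounds differ, since 2.68% of tested probes were called higher in prp17-1 and 18.3% in prp17 null. RPT2 read 0.76, 0.49 and 0.94 in prp17 null at 30, 60 and 120 min, 0.56, 0.83 and 0.82 in prp17-1, 0.08, -0.17 and 0.36 in prp22-1, and -0.17, -0.54 and -0.44 in SS330. Both prp17 strains lay wholly above SS330, while prp22-1 at 60 min met the highest SS330 value. RPT2 differed by 1.11 ± 0.16 in prp17 null and 1.12 ± 0.16 in prp17-1 (limma adjusted p = 0.00012 and 0.0010). Its difference of 0.48 ± 0.16 in prp22-1 was not called (0.088). RPT3, RPT4 and RPT5 were called in both prp17 strains, at 0.43 to 0.95 in prp17 null and 0.79 to 0.91 in prp17-1. The prp17 null calls of RPT3 (0.38) and RPT5 (0.37) were lost under quantile normalization, that of RPT5 also without prp17 null at 30 or 60 min or SS330 at 30, 60 or 120 min. RPT1 was called in prp17-1 (0.64 ± 0.16).

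RPT6 was the ATPase gene without a call. It read 0.20, 0.18 and -0.32 in prp17 null at 30, 60 and 120 min, 0.69, 0.90 and 0.98 in prp17-1, 0.35, 0.28 and 0.63 in prp22-1, and 0.59, 0.21 and 0.18 in SS330. Its prp17 null reading was the lowest of the 4 strains at each of these times. The late difference was -0.31 ± 0.19 in prp17 null and 0.53 ± 0.19 in prp17-1 (limma adjusted p = 0.20 and 0.11). Of the scaffold genes, RPN1 was higher in prp17 null by 1.09 ± 0.20 and in prp17-1 by 0.96 ± 0.20, and RPN2 in prp17 null by 0.70 ± 0.24. At 0 min RPN1 already read 1.33 in prp17 null and 0.65 in prp17-1, against 0.02 in SS330. RPN2 was 0.09 under quantile normalization, and its call was lost there and without prp17 null at 60 min or SS330 at 60 or 120 min. Of the ubiquitin receptor genes, RPN10 was higher in prp17-1 (0.61 ± 0.13) and RPN13 was called in neither, at -0.26 ± 0.15 in prp17 null and 0.14 ± 0.15 in prp17-1.

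In the lid, RPN5 and RPN7 were called in both prp17 strains, RPN9 and RPN11 in prp17 null, and RPN3, RPN6 and RPN8 in prp17-1. RPN5 read 1.35, 1.54 and 1.52 in prp17 null at 30, 60 and 120 min, 1.24, 1.19 and 1.44 in prp17-1, 0.88, 0.42 and 0.70 in prp22-1, and 0.76, 0.52 and 0.41 in SS330. Both prp17 strains stood above every SS330 value, by 0.91 ± 0.16 and 0.73 ± 0.16 in the fit (limma adjusted p = 0.00046 and 0.011). Under quantile normalization RPN5 was 0.23 in prp17 null and was not called (0.38), and its prp17-1 call was lost without prp17-1 or SS330 at 120 min. RPN9 in prp17 null was 0.50 and not called under quantile normalization. RPN11 differed by 1.12 ± 0.23 in prp17 null (0.0017) and by 0.70 ± 0.23 in prp17-1, where it missed the threshold (0.089). RPN12 was called in neither strain.

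**Figure D3:**
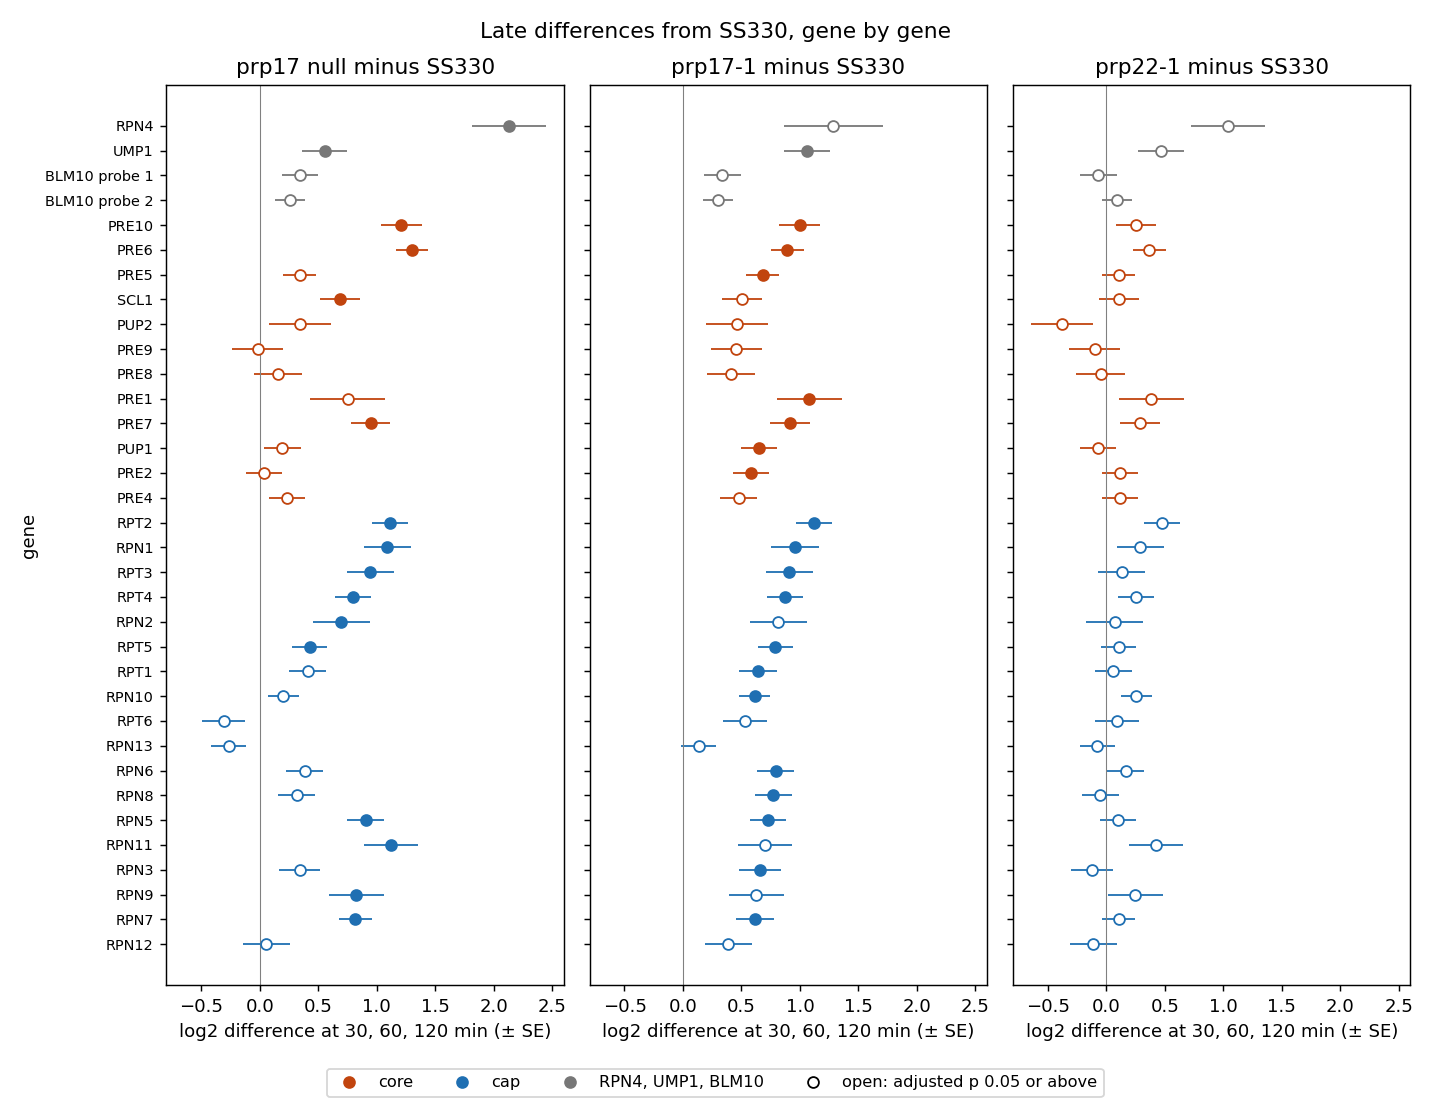
Fitted log2 difference from SS330 over 30, 60 and 120 min with its SE, for every member probe, in 1 panel per mutant. Filled points passed a limma adjusted p of 0.05. Genes run from RPN4, UMP1 and BLM10 through the core (orange) to the cap (blue). The prp17 null panel has 16 filled points, the prp17-1 panel 20 and the prp22-1 panel 0.

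Of the genes outside core and cap, RPN4 had the largest late differences in all 3 mutants. It was higher in prp17 null by 2.13 ± 0.32 (limma adjusted p = 0.00035). It was not called in prp17-1 (1.29 ± 0.43, 0.098), where only the 30 min array gave a value, nor in prp22-1 (1.04 ± 0.32, 0.081), and SS330 had no value at 60 min. UMP1, the chaperone of core maturation, read 1.00, 0.93 and 1.51 in prp17 null at 30, 60 and 120 min, 1.26, 1.67 and 2.02 in prp17-1, 0.82, 1.02 and 1.34 in prp22-1, and 0.88, 0.44 and 0.45 in SS330. It was above the highest SS330 value in every prp17 array and differed by 0.56 ± 0.19 in prp17 null and 1.06 ± 0.19 in prp17-1 (0.033 and 0.0044). In prp17 null the UMP1 difference was 0.0008 under quantile normalization, and its call was also lost without prp17 null at 30 or 120 min or SS330 at 60 or 120 min and with the arrays of these 2 strains alone. The prp17-1 value under quantile normalization was 1.09. The probes of BLM10 were called in no late comparison, at 0.26 to 0.34 in both prp17 strains, and their readings over the 24 arrays did not follow each other (r = -0.05).

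The late calls of both strains shared 11 genes: PRE6, PRE7, PRE10, RPT2, RPT3, RPT4, RPT5, RPN1, RPN5, RPN7 and UMP1. That is 68.75% of the 16 in prp17 null and 55% of the 20 in prp17-1, and the shared SS330 arrays enter both. The overlap over all tested probes was not counted, so whether these shares are particular to the proteasome genes is not known. Neither list held PRE4, PRE8, PRE9, PUP2, RPN12, RPN13, RPT6 or either BLM10 probe.

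A direct test asked whether the step between the early times (5 and 15 min) and the late times (30, 60 and 120 min) differed from that in SS330. It too was added after the courses had been seen. In prp17 null 11 of 34 probes had a larger late-minus-early difference than in SS330 and none a smaller one, where 4.12% of tested probes were called higher. All 34 estimates were positive (median 0.79 against 0.02 over tested probes), and the called ones ran from 0.77 (RPN10) to 1.31 (RPT3). The count was 4 without SS330 at 5 min, 2 without SS330 at 15 min, 5 without SS330 at 120 min, 7 without prp17 null at 5 min and 5 without prp17 null at 15 min. It was 0 under quantile normalization and 0 with the arrays of the 2 strains alone, so none of the 11 calls held in every alternative. In prp17-1 none was called, where 0.0365% of tested probes were, yet all 34 were positive, with a median of 0.99 against 0.01. Of the 34, 27 had an unadjusted limma p under 0.05, against 9.83% of tested probes. The count of called probes was 6 without prp17 null at 30 min and 11 without prp17 null at 120 min, arrays that enter through the shared spread and time terms, and 1 without SS330 at 30 min. In prp22-1 none was called, where 0.238% of tested probes were, with 29 of 34 positive and a median of 0.41. There 9 of the 34 had an unadjusted p under 0.05, against 10.7% of tested probes. The prp22-1 count of called probes was 3 without prp22-1 at 5 min and 1 without prp22-1 at 30 min.

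Core and cap medians were highest at the same time in SS330 and in prp17-1, but they did not always move in the same direction. In prp17 null at 30, 60 and 120 min the core median was 0.67, 0.79 and 0.55 and the cap median 0.82, 0.60 and 0.75. In SS330 from 60 to 120 min the core median went from -0.02 to 0.22 and the cap median from 0.06 to 0.05. Over the 24 arrays the core median minus the cap median varied from -0.24 to 0.19, with a median of -0.02. The lowest value was that of prp22-1 at 15 min and the highest that of prp17 null at 60 min. No level can be compared between probes, so only the change of this gap from array to array describes how the parts moved. Late, the calls were 4 of 12 core genes and 10 of 18 cap genes in prp17 null and 7 of 12 and 12 of 18 in prp17-1. Over all tested probes 18.3% were called higher in prp17 null and 2.68% in prp17-1. The median late difference of prp17 null was 0.34 over the core and 0.56 over the cap. For prp17-1 it was 0.62 over the core and 0.71 over the cap, and for prp22-1 it was 0.11 over each. The core minus cap gap of -0.22 in prp17 null became -0.03 when means over genes were taken in place of medians. Genes are not replicates, so the gap between the parts has no test.

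How alike the genes ran was described by Pearson's r over the 24 arrays between each probe and the median of the other members. It ranged from 0.17 (RPN13) to 0.92 (RPT4), with a median of 0.74, and 20 of 34 were above 0.7. The core and cap medians were both 0.77. Of 2486 other probes with a value on every array, 24 (0.965%) were above 0.7, and their median was -0.04. RPN4 had r = 0.59 over 21 arrays and RPN11 0.56, and RPT6 had 0.41. The arrays share strains and times, so these values are descriptions. The other genes most like the members were SHP1 (0.87), PIM1 (0.83), DDI1 and PHB1 (both 0.82), BUG1 and FMP52 (both 0.81), YAP1 and CDC48 (both 0.79), and AIP1 and REH1 (both 0.78).

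PRE3, the beta-ring gene with an intron, took another course. It read -0.20, -0.72, -0.71, -2.13, -2.31 and -3.43 in prp17 null from 0 to 120 min, -0.18, -1.02, -0.87, -0.80, -1.75 and -1.19 in prp17-1, 0.21, 0.42, 0.47, -0.92, -0.71 and -0.43 in prp22-1, and 0.45, 0.63, 1.27, 0.94, 0.68 and 0.30 in SS330. It was lower than in SS330 late in all 3 mutants, with differences of -3.26 ± 0.28 for prp17 null, -1.88 ± 0.28 for prp17-1 and -1.33 ± 0.28 for prp22-1 (limma adjusted p = 6.1e-06, 0.0018 and 0.013), so that 1 catalytic subunit gene of the core was lower while the other measured core genes were higher or not called. The prp22-1 call was lost without prp22-1 or SS330 at 60 min.

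**Figure D4:**
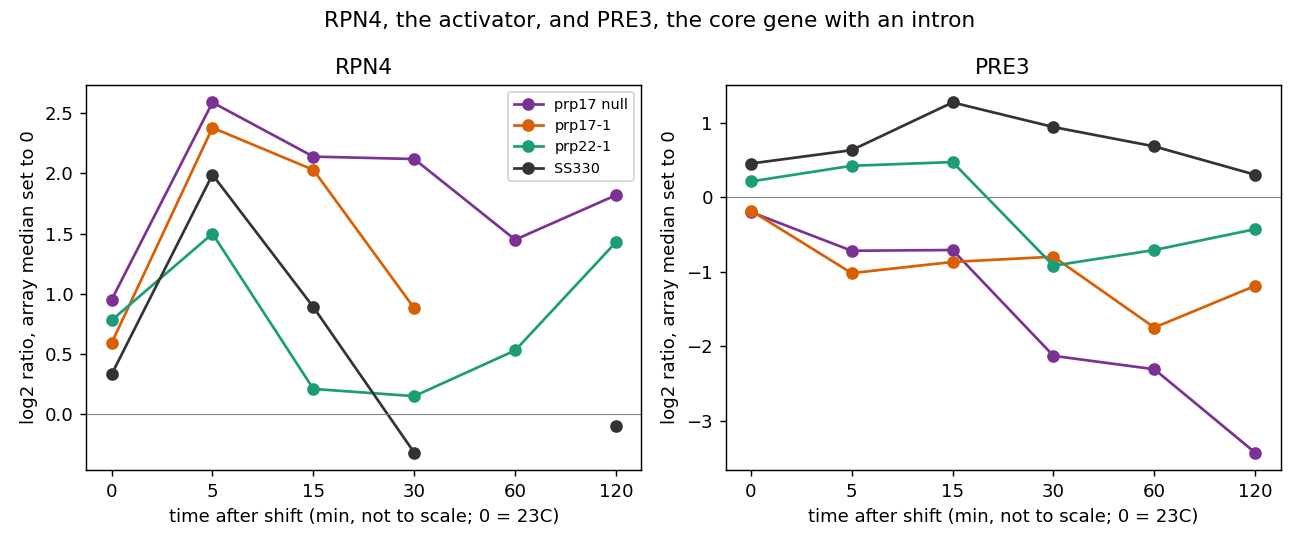
Log2 ratio of RPN4 (left) and PRE3 (right) against time after the shift in the 4 strains, 1 array per point, with gaps where an array gave no value and times spaced evenly. RPN4 is higher at 5 min than at 0 min in every strain, and PRE3 at 120 min runs from -3.43 in prp17 null to 0.30 in SS330.

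Among 11 genes of proteasome assembly, 10 were measured, and SEM1 had no probe under its name. Over the late times 4 were higher and 4 lower in prp17 null than in SS330. None was called in prp17-1, and 1 was lower in prp22-1. Of all tested probes 18.3% were called higher and 22.5% lower in prp17 null, and 3.08% lower in prp22-1. Under quantile normalization 2 were higher and 4 lower in prp17 null, where TMA17 (0.31) and NAS2 (0.02) were not called. Without SS330 at 30 min 3 were higher and 2 lower. In prp22-1 quantile normalization gave 1 higher (HSM3) and 2 lower (PBA1 and ADD66). The higher ones in prp17 null were TMA17 (1.73 ± 0.25), RPN14 (1.42 ± 0.18), HSM3 (0.61 ± 0.18) and NAS2 (0.52 ± 0.12), chaperones of the cap base. The lower ones were PBA1 (-0.99 ± 0.17), POC4 (-0.62 ± 0.16), IRC25 (-0.54 ± 0.16) and ADD66 (-0.51 ± 0.15), chaperones of the core's alpha ring. PBA1 was also lower in prp22-1 (-0.97 ± 0.17, limma adjusted p = 0.0038). For the shift averaged over strains 3 were higher and none lower, where 13.8% of tested probes were higher and 16.9% lower: TMA17 (1.71 ± 0.26), ECM29 (0.59 ± 0.21) and NAS2 (0.55 ± 0.10). ECM29 (0.28) was not called under quantile normalization.

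Of 28 genes of ubiquitin tagging and delivery to the proteasome, 25 were tested. DSK2 had no probe under its name, and UBC5 and UFD2 had too few values. Over the late times 14 were higher and 2 lower in prp17 null (median 0.58), 10 higher and 1 lower in prp17-1 (median 0.44), and 0 higher and 2 lower in prp22-1 (median 0.03). The shares of all tested probes called higher and lower were 18.3% and 22.5% in prp17 null and 2.68% and 4.52% in prp17-1, and 3.08% were lower in prp22-1. Under quantile normalization the counts were 5 higher and 3 lower in prp17 null, 11 higher and 1 lower in prp17-1, and 0 higher and 3 lower in prp22-1. The 2 lower in prp22-1 were 1 without SS330 at 30 or 60 min. The 10 of prp17-1 were 6 without prp17-1 at 30 min, 4 without prp17-1 or SS330 at 60 min, and 2 without prp17-1 or SS330 at 120 min. UBI4, which encodes polyubiquitin, was higher by 0.77 ± 0.20 in prp17 null and 1.07 ± 0.20 in prp17-1. Quantile normalization turned the sign in prp17 null, where UBI4 was called lower (-0.51), and gave 0.68 in prp17-1. UBA1, the ubiquitin-activating enzyme, was higher by 0.79 ± 0.17 and 0.97 ± 0.17, and RAD6, a conjugating enzyme, by 1.19 ± 0.15 and 0.56 ± 0.15, in the same order of strains. CDC48, an ATPase that extracts tagged proteins, its cofactor NPL4, the shuttle genes RAD23 and DDI1, UBP6, a deubiquitinase bound to the proteasome, and CUZ1 were also higher in both strains, by 0.36 to 1.19. SHP1, another cofactor of Cdc48, was called in prp17-1 (0.55 ± 0.15). UFD4, HUL5, UBR1, DOA1 and HRD1 were called in prp17 null, by 0.58 to 1.22. The calls that held in prp17 null under quantile normalization were those of RAD6, NPL4, UBP6, HUL5 and HRD1, and CUZ1 there was -0.33 and not called.

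UBC4, a conjugating enzyme gene that has an intron, was lower in all 3 mutants, with differences of -1.24 ± 0.16 for prp17 null, -1.29 ± 0.16 for prp17-1 and -1.22 ± 0.16 for prp22-1 (limma adjusted p = 6.6e-05, 0.00049 and 0.00064). SAN1, a nuclear ubiquitin ligase, was lower in prp17 null (-0.81 ± 0.24), and RAD23 was lower in prp22-1 (-0.63 ± 0.13), opposite to its sign in the prp17 strains. For the shift averaged over strains 10 of the 25 were higher and none lower, where 13.8% of tested probes were higher and 16.9% lower, with UBI4 (1.69 ± 0.20) and CUZ1 (0.96 ± 0.25) the largest, followed by HRD1, DDI1, UFD4, DOA1, NPL4, RAD6, UFD1 and UBR1 at 0.35 to 0.64. Under quantile normalization 4 were higher (UBI4, RAD6, DOA1 and HRD1) and 1 lower (UBC4). Without prp17 null at 23C 4 were higher, and without prp17-1 or prp22-1 at 23C 6 were.

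Of the 4 transcription factor genes whose products are known to act on RPN4, HSF1 was higher after the shift averaged over strains (0.46 ± 0.10). Over the late times YAP1 was higher by 0.89 ± 0.17 in prp17 null and 0.99 ± 0.17 in prp17-1 than in SS330, and PDR1 by 0.69 ± 0.18 and 0.77 ± 0.18 (limma adjusted p = 0.0010, 0.0036, 0.0086 and 0.020 in that order). PDR1 in prp17 null was -0.00 and not called under quantile normalization. Without prp17 null or SS330 at 120 min 1 of these genes was called in prp17 null, and without prp17-1 at 30, 60 or 120 min or SS330 at 120 min 1 was called in prp17-1. None of the 4 was called late in prp22-1. Late, 18.3% of tested probes were called higher in prp17 null and 2.68% in prp17-1, and 6.14% were called in either direction in prp22-1. For the shift averaged over strains 13.8% were higher.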

How the data were processed

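RNA of 4 strains at 6 times was hybridised against genomic DNA on 24 two-colour arrays. The deposited values are the authors' log ratios, taken as log2. Not given in the sources used here are the base of the logarithm, the background correction and the normalization. That RNA stands over DNA was inferred from CDC40 and SSA4. A baseline particular to a probe cancels between arrays.

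Each array was centred on its median. Probes measured on 20 or more of the 24 arrays, with 3 or more readings at 37C in each strain, were tested with limma 3.58.1 (R 4.3.3; lmFit, eBayes), adjusted by Benjamini-Hochberg over all tested probes; an adjusted p under 0.05 was called. The shift was fitted with strain as a block, and strain differences with time as a block, since the labels pair arrays by time. The code was tested on simulated data. The number of arrays limits the precision.

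The members, lists and rule for named genes (RPN4, UMP1, BLM10, each called member, the extremes of core and cap, called pathway genes) were chosen with earlier results of these data known; late and late-minus-early comparisons, and members named from them, were chosen after the courses were seen. A gene's name came from GEO's platform annotation: 5527 probes had 1 symbol, 0 had several and 823 had none. Tests between strains rest on the spread within 1 course. Alternatives were other scalings, filters, thresholds, terms and arrays left out. No promoter or protein sequence was used here.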

Additional observations from a re-analysis of the deposited data

Results flagged for a closer look

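In 5 of 135 sets of readings, 1 probe in 1 strain at 37C, a single reading lay far from the others of its course, and chance alone would do so in about 1 in 20 sets. UMP1 in prp17 null was 1.51 at 120 min, with the next reading at 1.00. RPN12 and RPT6 in prp17 null were low at the same time, at 0.37 (next 0.84) and -0.32 (next 0.14). RPN2 in prp22-1 was 2.02 at 15 min, with the next at 0.87; that array had the lowest share of probes with a value (77.3%), and PUP2 and RPN9 were also high on it (2.49 and 1.84). RPN7 in prp17-1 was 0.14 at 5 min, with the next at 0.65 and no value at 60 min. The part of the array itself in these readings was not tested.

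The step from early to late times differed between prp17 null and SS330 for 11 genes by limma's interaction test. The log2 difference was 1.31 for RPT3, 1.27 for RPN5, 1.24 for PRE10, 1.22 for PRE7, 1.08 for PRE6, 0.99 for RPT2, 0.96 for RPT5, 0.91 for RPT4, 0.90 for PRE5, 0.89 for RPN7 and 0.77 for RPN10. No gene was called under quantile normalization or with the arrays of the 2 strains alone.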

How the results depend on the processing

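Values are counts of the 34 probes called unless a median is named; the cause of a change was not tested except where fewer arrays, times or probes made it by construction. Quantile normalization lowered the shift to 1 (median -0.0903), 5 min to 1, 15 min to 0 (PRE7 at -0.14), 120 min to 0, prp17 null at 37C to 4 (median -0.0026), its late count to 8 (median 0.16) and its late-minus-early count to 0 (median 0.56); it gave 2 in prp17-1 at 37C, 1 for the change in prp17 null and 3 late in prp22-1. At an adjusted p under 0.01 the counts were 0 for the shift, 15 min and 120 min, 4 for prp17 null at 37C, 10 late in prp17-1 and 2 for late minus early in prp17 null. Without centring the shift gave 4. With a value required on all 24 arrays it gave 4, 5 min 1, 15 min 5 and late minus early in prp17-1 9; with 12 arrays, or with trend and robust settings, 120 min gave 1. With no strain block, which pairs arrays of a strain, the shift, 15 min and 120 min gave 0 and 5 min 1; with no time block, which pairs arrays of a time, prp17 null at 37C gave 6 and no count moved by over 1.5 times. Without the SS330 arrays the shift gave 4, 15 min 0, 30 min 1 and 120 min 4; without prp17 null the shift and 120 min gave 0 and 15 min 6; without prp17-1 or prp22-1 the shift gave 1 and 120 min 0. With the arrays of 2 strains alone, prp17 null at 37C gave 3 and late minus early 0 in prp17 null and 11 in prp17-1. At 5, 15 and 30 min alone prp17 null gave 2 (median -0.0805) and the prp17-1 median was -0.0090; at 30, 60 and 120 min alone both gave 16 and the prp22-1 median was 0.11. Core minus cap became 0.0144 for the shift under quantile normalization, -0.0326 late in prp17 null with means, and -0.0390 and -0.0422 late in prp22-1 with means and with quantile normalization.

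Leaving out 1 array at a time gave 0 to 6 for the shift (median 0.16 to 0.27), 2 to 4 at 5 min, 0 to 9 at 15 min, 0 to 1 at 30 min, 0 at 60 min and 0 to 6 at 120 min. At 37C it gave 4 to 11 in prp17 null (median 0.08 to 0.25), 0 to 1 in prp17-1 (0.19 to 0.46) and 0 in prp22-1 (-0.13 to 0.11). Late it gave 11 to 18 (0.36 to 0.51), 6 to 22 (0.59 to 0.80) and 0 to 1 (0.03 to 0.24) in the same order of strains. For late minus early it gave 2 to 16 (0.70 to 0.96), 0 to 11 (0.87 to 1.13) and 0 to 3 (0.24 to 0.56). For single genes, direction and call held in 1368 such refits and the call was lost in 168. Under the other alternatives both held in 391, the call was lost in 89 and 1 value reversed.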
